A study of Mus musculus with 2 samples.

Results

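The 42 genes described here encode the contractile apparatus of skeletal muscle: myosin heavy and light chains, troponin subunits, Z-disc and titin filament proteins, calcium handling proteins and muscle energy enzymes, with weight on those of fast fibres. They were picked by gene symbol, and the list was chosen with the knockout over wild type ratios of these same arrays known, so that each ratio is given as a description and no test is applied to it. The genes have 80 of the 41174 probes of the array. Of the 42, 38 had at least 1 probe that entered the comparison, among 18987 genes compared in all, and 4 (Myoz2, Mybpc1, Casq1 and Ampd1) had none.

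The study compared intestine of mice lacking Gpcpd1 in the gut (Gde5 gutKO) with wild-type intestine. Gpcpd1 encodes GDE5, a phosphodiesterase that splits glycerophosphocholine. Both groups were C57BL/6 males, 20 weeks old and on a normal diet. The series text gives 5 mice. Whether their RNA was pooled, which stretch of intestine was taken and which promoter drove the deletion are not given in the sources used here. Each of 2 dual-colour Agilent arrays received RNA of both genotypes. Below, "knockout" and "wild type" stand for the RNA so labelled. In replicate 1 the knockout carried Cy3, and in replicate 2 it carried Cy5. Nothing in the labels says that the arrays hold separate animals or extracts, so the SD between them measures only the spread of 2 hybridisations, which may be technical.

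Spots well above background made up 75.3% and 70.3% of gene spots for the knockout in replicates 1 and 2, and 69.3% and 76.1% for the wild type. Once turned for the dye swap, the log2 ratios of all genes correlated at r = -0.38 between the arrays, a value across genes, which are not independent replicates. For a gene with opposite signs on the 2 arrays, the same dye was the higher on both. The 4 probes of Gpcpd1 had mean log2 ratios of 0.47, -0.13, 0.62 and 0.68, so that 3 of its 4 probes were higher in the library labelled knockout and the fourth, at -0.13 ± 0.43, differed by less than its SD. Where these probes lie relative to the deleted part is not given. Every direction below therefore rests on the dye labels. All 10 listed enterocyte marker genes, which define the labelled tissue, were measured.

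In striated muscle, myosin heavy chains bound to light chains form the thick filament and pull on actin filaments anchored in the Z-disc. Troponin, a complex of calcium-binding, inhibitory and tropomyosin-binding subunits, makes the pull depend on calcium released from the sarcoplasmic reticulum. Fast and slow fibres use different gene copies of many of these proteins, whereas the muscle of most of the gut wall is smooth muscle, which has no sarcomeres or troponin. Skeletal muscle is known at the ends of the gut, in the mouse oesophagus and in the external anal sphincter.

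Ratios are knockout over wild type on the log2 scale, from normexp-corrected intensities with an offset of 50 added, as the mean ± SD of the 2 arrays. Levels are normalised intensities of 1 channel on that scale. Spots that were not well above background in either genotype on either array, 9908 of them, had a median level of 59.8 and a range from the 5th to the 95th percentile of 54.8 to 65.5, so that a level in that range is the floor of the scale. A fold from a gene near the floor is compressed by the offset. Levels of different probes depend on the probe and are not set against each other.

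Of the 38 genes compared, 6 were at least 1.5-fold higher in the knockout on both arrays: the myosin heavy chains Myh4, Myh8 and Myh1 and the fast troponin subunits Tnnc2, Tnni2 and Tnnt3. Over all genes 30 of 18987 were, 0.158%. None of the 38 was at least 1.5-fold lower on both, against 0.0579% of all genes. Higher on both arrays by any amount were 20 of the 38, against 16.9% of all genes. A further 5 were lower on both, against 18.1% of all genes, and 13 went opposite ways. The count of 6 depends on the processing: it was 2, Myh4 and Myh8, when spots marked as outliers were kept in the background fit, and 12 on the scanner's processed signals. The median log2 ratio over all 42 genes, with the brightest probe for the 4 not compared, was 0.15, and that of all 18987 genes was -0.01. Because these contrasts chose the list, nothing is read from the shares. With limma's moderated test of the mean ratio against 0 and Benjamini-Hochberg adjustment, 0 of 18987 genes (0%) passed 0.05, with 236 at an unadjusted p under 0.05 and a smallest adjusted p of 0.453. Just inside the 1.5-fold line, at a log2 ratio of 0.585, was Tnnt3 with 0.72 as the smaller of its ratios on the 2 arrays. Just outside were Pvalb with 0.51 and Myl1 with 0.39. In these bulk samples a difference in the number of muscle cells and in muscle RNA per cell cannot be told apart.

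**Figure D1:**
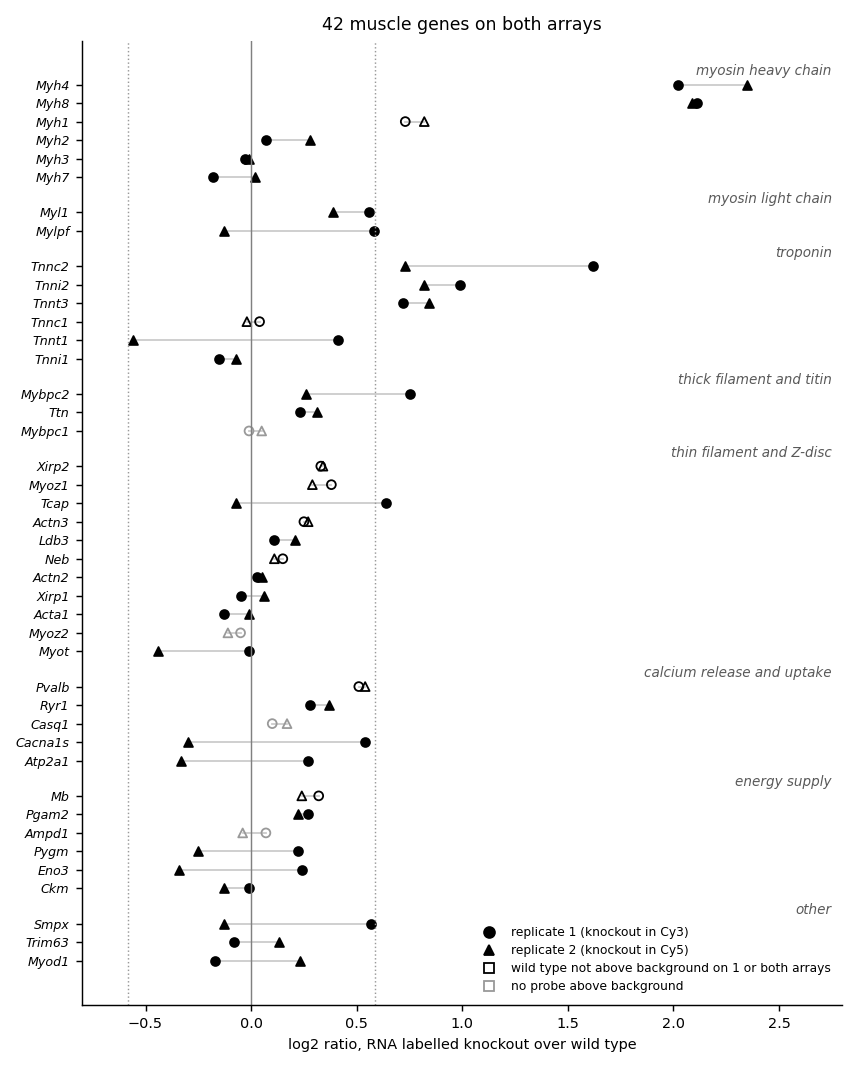
Log2 ratio of the knockout over wild type (horizontal axis) for each of the 42 genes, by role, with a circle for replicate 1, a triangle for replicate 2 and dotted lines at 1.5-fold. Myh4 and Myh8 sit above 2.0 on both arrays, and 4 more genes lie to the right of the dotted line on both.

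Among myosin heavy chains, the motor proteins of the thick filament, the adult type IIb chain Myh4 had the highest mean ratio of the 42 genes on this scale, though not with an offset of 0 or on the processed signals. With the mean of a gene's entering probes Myh4 had 1.88 and Myh8 2.1, and in replicate 1 alone Myh8 was also the higher. On the brightest Myh4 probe, at chr11:67073834-67073893 of mm9, the level was 1080 in the knockout and 267 in the wild type of replicate 1, and 1090 and 213 in replicate 2. Both knockout values lay above both wild-type values, with log2 ratios of 2.02 and 2.35 and a mean of 2.18 ± 0.23, a 4.55-fold difference. A second Myh4 probe, at chr11:67072804-67072863, gave 444 against 125 and 318 against 125, and a mean of 1.58 ± 0.34.

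The brightest probe of Myh8, the perinatal heavy chain of developing muscle, lies at chr11:67121925-67121984. It read 715 in the knockout and 165 in the wild type of replicate 1, and 636 and 150 in replicate 2. The log2 ratios of 2.11 and 2.09 were almost equal on the 2 arrays, with a mean of 2.10 ± 0.02, a 4.28-fold difference. The other 3 Myh8 probes, at chr11:67108324-67108383, chr11:67098388-67098447 and chr11:67094291-67094350, were not well above background in either genotype on either array, with mean ratios of -0.03, 0.02 and 0.04. The gene thus rests on 1 of its 4 probes.

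For Myh1, the type IIx chain, the brightest probe, at chr11:67037938-67037997, was well above background on both arrays for the knockout and on neither for the wild type. Levels were 117 and 111 for the knockout and 70.7 and 63.0 for the wild type. The measured log2 ratios were 0.73 and 0.82, mean 0.78 ± 0.06. Since the wild-type signal was not well above background, the 1.71-fold difference on this probe is uncertain in size. It is not a minimum for the gene. The second Myh1 probe, at chr11:67022830-67023932, had levels of 74.4 against 69.2 and 77.6 against 69.8, and a mean ratio of 0.13 ± 0.03.

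Probes of the 3 leading myosins are shown in part because these genes are close copies and a probe can bind more than 1 of them. The brightest Myh4 probe and the rest of the Myh1 probe are not printed. The Myh8 probe and the first 30 bases of the Myh1 probe, both 5′ to 3′, share the 19 bases in capitals, the longest stretch that either shares with a probe of another gene on this array.
Myh8: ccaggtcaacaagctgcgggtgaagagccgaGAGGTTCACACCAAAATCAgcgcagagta
Myh1: gGAGGTTCACACCAAAATCAtaagcgaaga
The second Myh4 probe and the brightest Myh3 probe can be set side by side without gaps so that 40 positions are identical, printed in capitals.
Myh4: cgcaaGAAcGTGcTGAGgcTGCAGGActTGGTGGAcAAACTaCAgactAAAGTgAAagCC
Myh3: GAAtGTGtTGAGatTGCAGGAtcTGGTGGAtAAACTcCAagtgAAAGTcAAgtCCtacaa
Their longest unbroken shared run is 9 bases. The Myh3 probe, for the embryonic heavy chain, read 74.5 and 75.7 in the knockout and 76.1 and 76.0 in the wild type. Myh3 had a mean ratio of -0.02 ± 0.02 on it, and 0.07 ± 0.15 on another probe that did not enter the comparison. Whether any of these probes binds transcripts of another heavy chain was not tested, so that the 3 genes are uncertain taken one by one.

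The other heavy chains did not reach 1.5-fold. Myh2, the type IIa chain, had 4 probes with mean ratios of 0.23, 0.10, 0.18 and 0.00. Its brightest read 78.3 and 81.4 in the knockout and 74.6 and 67.0 in the wild type, close to the floor. On the scanner's processed signals that Myh2 probe had 0.58 and 1.79, a mean of 1.19 ± 0.85. Myh7, the slow chain on chromosome 14 that heart muscle also uses, read 129 and 133 against 147 and 131, with a mean ratio of -0.08 ± 0.14, and its second probe, which overlaps the first, gave -0.09 ± 0.39. The 5 heavy chain genes other than Myh7 have their 14 probes within 207 kb of chromosome 11 (mm9 66914684 to 67121984), in the order Myh3, Myh2, Myh1, Myh4, Myh8. Within that row of neighbours the 3 with the highest ratios lay next to each other at the higher coordinates.

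**Figure D2:**
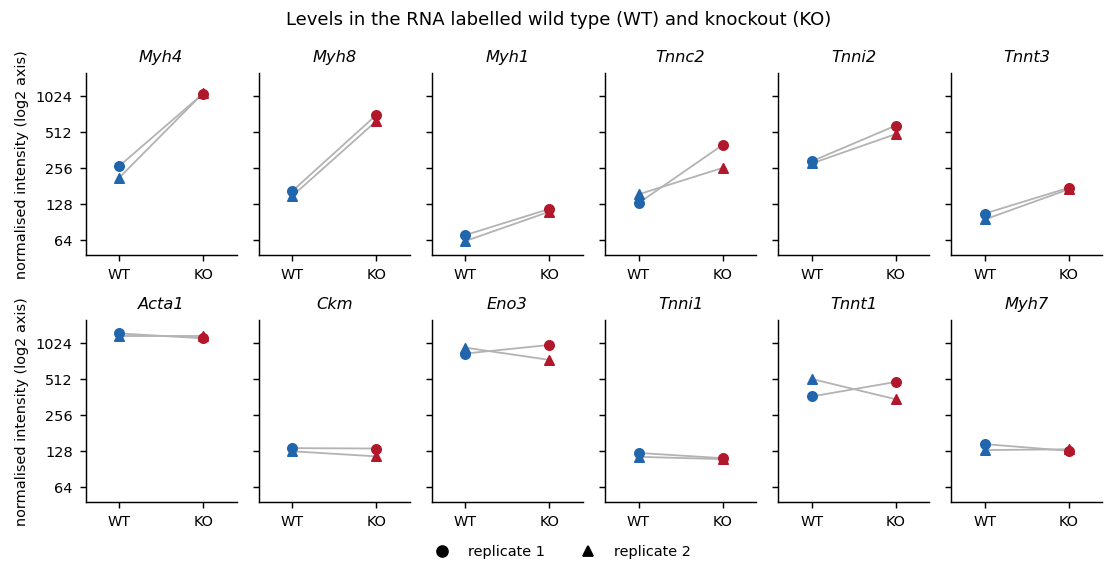
Normalised intensity (log2 axis) in the wild type (WT) and knockout (KO), with a line joining the channels of an array, circles for replicate 1 and triangles for replicate 2. The upper row shows the 6 genes at least 1.5-fold higher on both arrays, with lines that all slope upwards, and the lower row 6 genes without such a difference, among them Acta1 at 1130 and 1170 in KO and 1240 and 1170 in WT.

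All 3 fast troponin subunits were higher, and none of the 3 slow ones. Tnnc2, the calcium-binding subunit of fast fibres, read 401 against 131 in replicate 1 and 258 against 155 in replicate 2. Its knockout values exceeded both wild-type values, but the arrays differed, with log2 ratios of 1.62 and 0.73 and a mean of 1.18 ± 0.62, 2.26-fold. Tnni2, the fast inhibitory subunit, read 583 against 293 and 495 against 281. Its ratios of 0.99 and 0.82 gave a mean of 0.90 ± 0.13, 1.87-fold, with no overlap between genotypes. With outlier-marked spots kept in the background fit, the mean ratios were 0.93 for Tnnc2, 0.69 for Tnni2 and 0.46 for Tnnt3, and none of the 3 was at least 1.5-fold higher on both arrays.

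Tnnt3, the fast subunit that binds tropomyosin, was measured by 2 probes that read different parts of the transcript. They are printed 5′ to 3′ because both gave the same direction, and no base is marked.
Tnnt3, brightest probe: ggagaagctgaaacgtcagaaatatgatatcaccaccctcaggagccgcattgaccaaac
Tnnt3, other probe: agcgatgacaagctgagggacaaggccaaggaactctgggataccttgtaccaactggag
The brightest covers chr7:149698500-149700262, a span longer than its 60 bases, so that it is not contiguous in the genome. It read 176 against 107 and 171 against 95.5, with a mean ratio of 0.78 ± 0.08, 1.72-fold. The other, at chr7:149698254-149698479, read 139 against 70.0 and 95.4 against 71.4, with a mean of 0.71 ± 0.41, and on 1 array its wild-type channel was not well above background.

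The slow troponins stayed near equality or moved with the array. Tnni1, the slow inhibitory subunit, read 112 and 110 in the knockout and 124 and 115 in the wild type, a mean ratio of -0.11 ± 0.05. Its dimmer probe had -0.05 ± 0.24. Tnnc1, the calcium-binding subunit of slow and heart muscle, had levels between 67.6 and 69.4, just above the floor, and a mean of 0.01 ± 0.04. Tnnt1, the slow subunit that binds tropomyosin, read 487 against 368 in replicate 1 and 349 against 516 in replicate 2. Its ratios of 0.41 and -0.56 had opposite signs, and the Cy3 channel was the higher on both arrays.

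Counted by fibre type, 12 of the 42 genes were assigned to fast fibres, 2 to developing muscle and 5 to slow fibres, from textbook knowledge. Genes used mainly but not solely in one fibre type, and the light chains Myl1 and Mylpf, were left unsorted. Of the 11 fast genes compared, 10 were higher on both arrays, as 16.9% of all genes were. At least 1.5-fold higher on both were 5 of them, against 0.158% of all genes, and the median ratio of the 11 was 0.53. Of the 4 slow genes compared, 0 were higher and 1 lower on both, and their median was -0.08. The 21 other genes compared had a median of 0.13, with 9 higher and 3 lower on both, where 16.9% and 18.1% of all genes were. These counts and medians are of genes that entered the comparison. Some entered through the knockout alone, among them the fast Myh1, Actn3, Pvalb and Myoz1 and the slow Tnnc1. Because these contrasts chose the list, nothing is read from the counts, and the difference between fibre types was not tested.

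The light chains, which wrap around the lever of the myosin head, were both bright. Myl1, the alkali light chain of fast muscle, read 665 against 449 and 589 against 451, with ratios of 0.56 and 0.39 and a mean of 0.48 ± 0.13. Both arrays went the same way, short of 1.5-fold. A dim second Myl1 probe, which did not enter the comparison, had 0.33 and -0.02. Mylpf, the fast regulatory light chain, read 294 against 197 in replicate 1 and 219 against 239 in replicate 2, so that its mean of 0.22 ± 0.50 covers opposite signs.

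In the thick filament and titin group, Mybpc2, the fast myosin-binding protein C, read 193 against 114 and 151 against 126, a mean ratio of 0.51 ± 0.35. Ttn encodes titin, the giant spring that spans each sarcomere from Z-disc to M-line, and it was covered by 10 probes. The brightest had ratios of 0.23 and 0.31, mean 0.27 ± 0.06. Of the other 9, 2 entered the comparison, with means of -0.01 ± 0.10 and 0.14 ± 0.01, the last well above background in the knockout alone. The remaining 7 were at background in both genotypes. Mybpc1, the slow isoform, had 1 probe, which was not well above background in any channel.

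Acta1, the actin of skeletal muscle thin filaments, did not follow the fast myosins. Its single probe read 1130 and 1170 in the knockout and 1240 and 1170 in the wild type. The genotypes overlapped, and the mean ratio was -0.07 ± 0.09. Among Z-disc genes of fast fibres, Actn3 (alpha-actinin 3) had a mean of 0.26 ± 0.02 and Myoz1 (calsarcin 2) 0.33 ± 0.06, both with the wild type well above background on 1 array. A second Myoz1 probe, which did not enter the comparison, had 0.06 ± 0.18. Xirp2, an actin-binding repeat protein, was above background in the knockout alone. It read 78.4 and 72.4 against 62.2 and 57.0, a mean ratio of 0.34 ± 0.01. Its other 2 probes were at background.

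The rest of that group lay close to 0 or split by array. Ldb3, a PDZ and LIM protein of the Z-disc, had 3 probes with means of 0.09, 0.08 and 0.16, the last on its brightest. Neb, the nebulin ruler of the thin filament, had a mean of 0.13 ± 0.03 on the 1 of its 6 probes that entered, and Actn2, the alpha-actinin of all striated fibres, 0.04 ± 0.02. Xirp1 had 0.00 ± 0.08. Tcap, the titin cap, had ratios of 0.64 and -0.07. Myot (myotilin) was the lowest of the 38, with -0.01 and -0.44. Myoz2, the slow calsarcin, had both its probes at background.

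Among calcium handling genes, Pvalb encodes parvalbumin, the calcium buffer of fast fibres. It read 93.9 and 95.5 in the knockout, with 65.9 and 65.5 in the wild type, where it was not well above background on either array. The measured mean was 0.53 ± 0.02, a 1.44-fold difference of uncertain size. Ryr1, the calcium release channel, had 3 probes with means of -0.05, 0.17 and 0.32, and the brightest of them had 0.28 and 0.37. Atp2a1, the fast calcium pump, had opposite ratios of 0.27 and -0.33 on its brightest probe. On its second it was above background in the knockout alone, with ratios of 0.10 and 0.35. Cacna1s, the voltage sensor, also split, at 0.54 and -0.30, and its second probe was at background. Casq1, the fast calcium store protein, was not well above background in any channel.

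Energy supply genes were mostly level. Ckm, muscle creatine kinase, read 135 and 116 against 136 and 128, a mean ratio of -0.07 ± 0.08. Mb (myoglobin) had 0.28 ± 0.06, with the wild type above background on 1 array, and Pgam2, the muscle phosphoglycerate mutase, 0.24 ± 0.04. Eno3 (beta-enolase) had 0.24 and -0.34, and Pygm (muscle glycogen phosphorylase) 0.22 and -0.25. Ampd1, the muscle AMP deaminase, had no probe that entered.

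Of the last 3 genes, Smpx, a small muscle protein, had 0.57 and -0.13. Trim63, the ubiquitin ligase MuRF1, had 0.03 ± 0.14 on the brighter and -0.08 ± 0.05 on the dimmer of its probes. Myod1, the transcription factor that sets muscle identity, was printed 10 times on each array. Over those spots its log2 ratio ran from -0.27 to -0.05 in replicate 1, median -0.19, and from 0.12 to 0.42 in replicate 2, median 0.23. All 10 spots were thus below 0 on one array and above 0 on the other, with the Cy5 channel the higher on both.

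**Figure D3:**
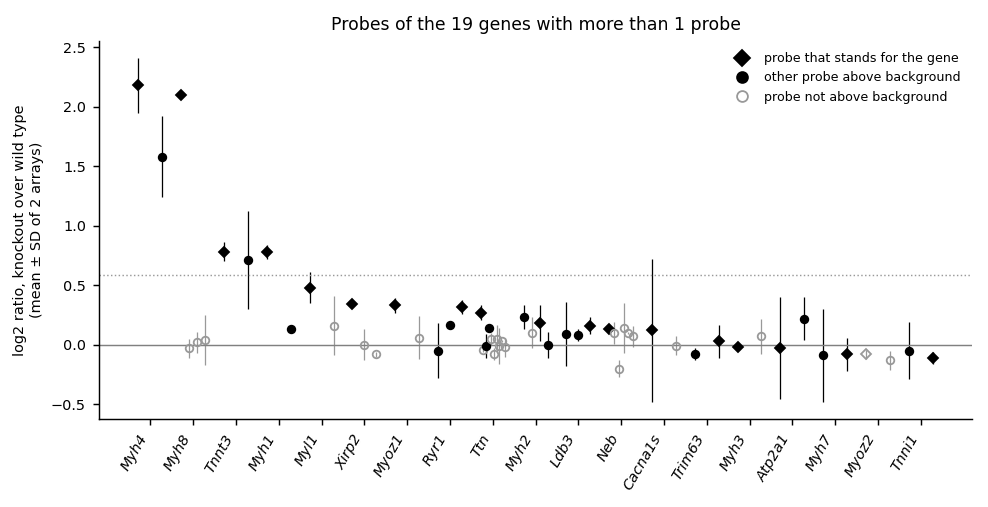
Mean ± SD over the 2 arrays of the log2 ratio (vertical axis) for each probe of the 19 genes with more than 1 probe, with a dotted line at 1.5-fold. The 2 Myh4 and the 2 Tnnt3 probes lie above the line, whereas 1 of 4 Myh8 probes and 1 of 2 Myh1 probes do.

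How firmly the smaller differences read depends on the intensity scale. The 8 genes Myh1, Tnnc1, Actn3, Pvalb, Mb, Myoz1, Xirp2 and Neb entered through the knockout alone, 5 of them with the wild type above background on 1 array and 3 on neither, so that these could hardly have come out lower. For such dim genes the scanner software's processed signals, which carry no offset, gave far larger ratios. Pvalb was at 45.3 against 2.81 and 56.8 against 7.83. Myh1 was at 86.3 against 10.7 and 80.1 against 9.19. Xirp2 was at 28.0 against 7.51 and 31.7 against 2.10, the software having put a surrogate value for the wild type on 1 array. For these 3 genes the wild-type signal was not well above background. Their processed ratios are therefore no measured folds, and the size of the difference is uncertain on either scale. The bright genes moved less: Myh4 had 2.47 and 2.65, Myh8 2.71 and 2.76, and Tnni2 1.14 and 0.94.

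On the processed signals 12 of the 42 genes were at least 1.5-fold higher on both arrays, against 0.552% of 19005 genes. They were the 6 named above with Actn3, Mb, Myoz1, Pvalb, Ttn and Xirp2. Over all 19005 genes there, limma called 38, or 0.200%, after Benjamini-Hochberg adjustment. Acta1 had -0.14 and -0.04 and Ckm 0.28 and -0.17 on that scale, so that neither joined them.

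**Figure D4:**
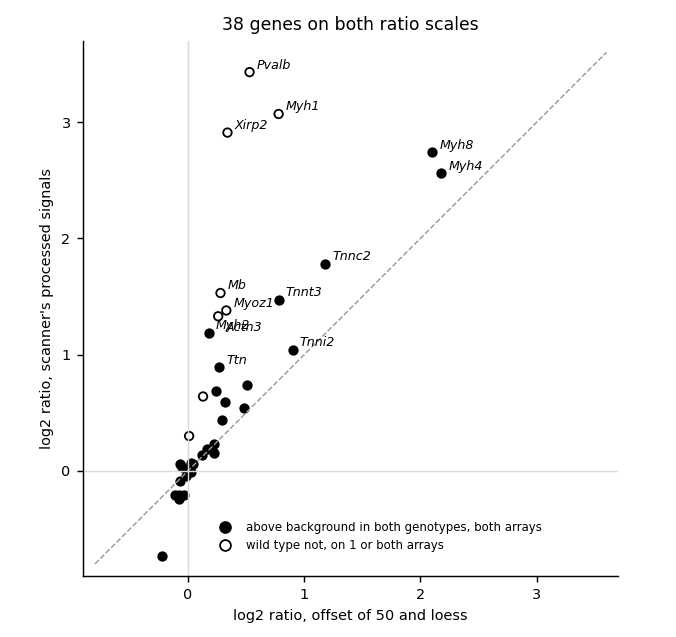
Mean log2 ratio of the 38 genes compared on the intensities with an offset of 50 (horizontal axis) and on the scanner's processed signals (vertical axis), with the line of equality dashed and open circles for genes whose wild type was not above background on 1 or both arrays. Pvalb, Myh1 and Xirp2 stand farthest above the line, with a wild type not above background on either array, and Myh4 and Myh8 lie nearer to it.

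Other skeletal muscle genes were listed beside these. Of 86, 85 were on the array and 68 were compared: 18 were higher on both arrays and 14 lower on both, where 16.9% and 18.1% of all genes were, and 36 went opposite ways. None reached 1.5-fold on both, as 0.158% of all genes did, and their median ratio was -0.02. Some of them, such as Aldoa and Tpm1, are also expressed by other cells of the gut, and no difference from the 42 genes was tested. The highest mean was that of Adssl1, a muscle adenylosuccinate synthetase, at 0.43 ± 0.44. Cox6a2, the muscle subunit of cytochrome oxidase, had 0.43 and 0.36, mean 0.39 ± 0.05. Mylk2, the kinase of skeletal muscle light chains, had 0.18 ± 0.01, and Nrap, a myofibril assembly protein, 0.23 ± 0.15. Fbp2, the muscle fructose bisphosphatase, was lower at -0.24 ± 0.01, and Sln (sarcolipin) had -0.12 ± 0.01.

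By subgroup the medians were -0.02 for 23 further sarcomere and Z-disc genes, -0.03 for 23 membrane and calcium genes and 0.07 for 22 energy genes. The 13 slow fibre and heart genes compared had a median of 0.02, with Tnnt2, the heart troponin T, highest at 0.39 ± 0.30. Of the muscle precursor genes 7 were compared, median 0.01, with Pax7 at 0.10 ± 0.07, and Pax3, Myf5 and Myf6 did not enter the comparison.

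Markers of cells that lie beside skeletal muscle at the ends of the gut were given the same description. Of the squamous epithelium genes 12 of 17 were compared, median -0.04, with none at 1.5-fold, and the summed level was 2380 and 2430 in the knockout and 2330 and 2500 in the wild type. The 12 include the keratins Krt5, Krt14, Krt13, Krt6a and Krt15 and the desmoglein Dsg3, all well above background in both genotypes on both arrays, while Krt4, Trp63, Dsc3, Sprr3 and Calml3 did not enter the comparison. Motor nerve and Schwann cell genes had a median of -0.04 over 9 genes, and Chat, the enzyme that makes acetylcholine, did not enter the comparison. Gut smooth muscle genes had a median of -0.04 over 15, with 1 higher and 3 lower on both arrays, and their summed level was 210000 and 174000 against 181000 and 209000, higher in Cy3 on both arrays.

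Genes of other tissues that can be carried along with intestine had medians below 0. The 10 adipocyte genes had a median of -0.13, with 5 lower (18.1% of all genes were) and 0 higher on both arrays and a summed level of 50300 and 45300 against 55900 and 55800. Exocrine pancreas genes had a median of -0.10 over 8, and red blood cell genes -0.29 over 5. Of the 10 enterocyte genes 5 were higher and 4 lower on both arrays, with a median ratio of 0. Their summed level was 503000 and 504000 against 450000 and 462000. A summed level is weighted to the brightest probes. Here Fabp2 alone read 146000 and 147000 against 75700 and 108000, so that the sums do not describe the enterocyte genes as a group. The highest ratios were those of Fabp1, the liver-type fatty acid binding protein, at 1.28 ± 0.01 and Lct (lactase) at 1.41 ± 0.61. Fabp1 and Lct went the same way as Myh4 and Myh8, and the part of tissue makeup in the muscle ratios was not tested.

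**Figure D5:**
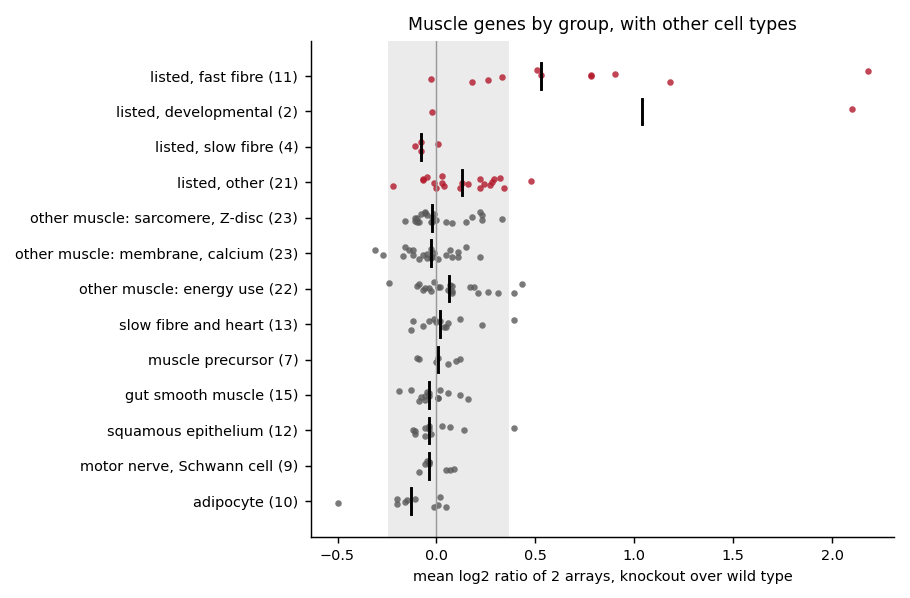
Mean log2 ratio of the 2 arrays (horizontal axis) for the genes compared in each group, 1 point a gene, with a bar at the group's median, the number of genes in brackets and a grey band from the 2.5th to the 97.5th percentile of all 18987 genes, -0.24 to 0.36. The listed fast fibre genes reach to the right of the band, the listed slow fibre genes have a median of -0.08, and the medians of the groups outside the 42 genes run from -0.13 to 0.07, with single genes outside the band such as the adipocyte gene Cfd at -0.50.

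Promoter sequences were looked at because the 6 genes share a direction. The RefSeq promoters of GRCm38.p6, from 250 bases before to 50 after the start, held 38 entries for 32 of the 42 genes. Shown are the 250 bases before the start of Myh4 (plus strand, chr11:67237562-67237811), of Myh1 (plus strand, chr11:67199852-67200101) and, as a gene whose ratio was near 0, of Acta1 (minus strand, chr8:123894776-123895025), 5′ to 3′. Capitals mark matches on either strand to the MEF2 and CArG motifs, to the MCAT motif CATTCC and to the TATA motif TATAAA, which can lie inside a MEF2 match.
Myh4: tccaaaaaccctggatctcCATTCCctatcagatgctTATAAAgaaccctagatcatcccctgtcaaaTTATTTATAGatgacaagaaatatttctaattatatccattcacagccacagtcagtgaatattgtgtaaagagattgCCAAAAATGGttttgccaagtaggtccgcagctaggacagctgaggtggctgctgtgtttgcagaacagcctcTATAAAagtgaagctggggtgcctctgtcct
Myh1: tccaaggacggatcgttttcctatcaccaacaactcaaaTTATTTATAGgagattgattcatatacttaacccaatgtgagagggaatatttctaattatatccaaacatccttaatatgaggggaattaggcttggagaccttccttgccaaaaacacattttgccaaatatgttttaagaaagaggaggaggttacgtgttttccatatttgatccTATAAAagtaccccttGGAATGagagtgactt
Acta1: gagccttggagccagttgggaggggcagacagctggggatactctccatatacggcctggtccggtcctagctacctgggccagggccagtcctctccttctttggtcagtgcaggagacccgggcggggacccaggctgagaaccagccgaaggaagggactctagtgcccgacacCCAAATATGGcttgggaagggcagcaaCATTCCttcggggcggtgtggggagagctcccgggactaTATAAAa
A MEF2 match was present in 8 of the 38 promoters, 21.1%, against 3.2% of 32851 promoters of the same length, and a CArG match in 4, 10.5% against 1.6%. Entries of one gene can overlap: the 4 CArG matches belong to 3 genes, since both Ldb3 entries hold the same site. CATTCC was in 12, 31.6% against 14.7%, TATAAA in 9, 23.7% against 13.6%, and the E-box CANNTG in 31, 81.6% against 72.3%. Of the 6 genes higher on both arrays, Myh4, Myh8, Myh1 and Tnnc2 had a promoter entry. MEF2 matched 3 of these 4, all but that of Tnnc2, and those 3 are neighbouring heavy chain genes. The other MEF2 matches were in promoters of Myoz2, Pgam2, Pvalb, Ttn and Xirp2. Of these, Myoz2 was not compared, and the others were not 1.5-fold higher on both arrays with the offset of 50. In Myh8 the TATAAA match lies inside the MEF2 match. A link between a motif and the ratios was not tested. TATAAA and the E-box also matched 3 each, CATTCC 2 and CArG 1. A match is a description of the letters and not a site.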

How the data were processed

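Both arrays were analysed as 1 comparison with replicates 1 and 2 as a dye swap. The authors' deposited intensity values came from Agilent Feature Extraction 11.5.1.1 per the file headers, while the submitters' processing notes name version 9.5. They are the mean brightness of each spot and the median of its local background, and a processed signal that the software had background-subtracted, detrended and dye-normalized. The deposited log10 ratio divides the processed Cy5 by the processed Cy3 signal of an array. The deposited value table repeats it within 0.0005, not turned for the swap. It has 0 columns of other samples. Probe coordinates were taken from the scanner files (mm9). The position of probes in exons or untranslated regions was not looked up, as no mm9 annotation was used here.

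Each array had 43379 gene spots and 1639 control spots. The software had marked 133 and 193 spots as feature outliers and 0 and 47 as background outliers, none of them of the 42 genes, and they were dropped before the fit. limma 3.58.1 in R 4.3.3 did the normexp background correction (offset 50) and the loess normalization of each array, in which control spots had weight 0. Levels per channel came from quantile normalization of the arrays' mean log intensities (Aquantile). Spots of a probe were averaged. A probe entered when a genotype was well above background on both arrays (29090 did), and the brightest such probe stood for a gene. The test over all genes was limma's lmFit and eBayes against 0; the residual degrees of freedom were 1 and the prior ones 3.01.

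The 42 genes, the other lists and the tests were chosen with earlier results of these data known. All of the 42 with an entering probe are named with values. From every other list, the genes named are among the 4 with the largest smaller-of-arrays ratio in one direction, or are listed markers that did not enter the comparison, such as Krt4, Myf5 and Chat. Cfd, Aldoa, Tpm1 and the keratins and desmoglein that entered were named after their values were seen, where outside this rule. Motifs were searched on both strands. The MEF2 and CArG patterns use ambiguity letters and are given by name. Alternatives covered the background correction, the ratio source, the normalization, the dim-probe filter, the choice of probe, the fold threshold and leaving out each array. Only 2 arrays were available, and their number limits the precision.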

Additional observations from a re-analysis of the deposited data

How the results depend on the processing

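Of the 42 genes, 6 were at least 1.5-fold higher on both arrays, and all 6 were also found with no background correction (7 genes), median centring, an array-surface correction and no filter on dim probes. The count was 11 with an offset of 0, 12 on the scanner's processed ratios and 12 in the deposited value table, all including those 6, and 2 with outlier-marked spots kept and 2 at a 2-fold threshold. With the mean of a gene's probes it was 5, without Myh1. Myh4 and Myh8 were in the count under all 10 settings of processing. Leaving out 1 array gave 6 to 8 genes, a median ratio of the 42 genes of 0.12 to 0.24, and 0 to 4 other skeletal muscle genes. The 4 came from replicate 1 alone. With 1 array limma has no residual degrees of freedom and gave no call. The median of the 42 was 0.26 with an offset of 0, and 0.49 on the processed ratios and in the deposited value table. Other skeletal muscle genes at 1.5-fold numbered 1 under each of those 3. Genes called by limma over the whole array were 22 with an offset of 0, 38 on the processed ratios, 35 in the deposited value table and 6 with the surface correction, against 0 as reported. For single genes under the other settings of processing, 239 of 342 ratios moved by less than the SD between arrays and 103 by more. Among those 342, a sign change occurred in 18 values of 7 genes, whose reported ratios were at most 0.07 in size, and in 0 values of the 6 genes. Leaving out 1 array is not among these values. Genes with opposite signs on the 2 arrays change sign there. Without replicate 1, for example, Tcap went from 0.29 to -0.07 and Cacna1s from 0.12 to -0.30. By construction an offset of 0 and the processed signals lift the ratios of dim probes; the cause of the fall to 2 with marked spots kept was not tested. Genes near the floor, among them Tnnc1, Actn2 and Myh2, have little signal over background; small differences may not be detectable there. Each ratio already pairs both genotypes within an array, so there was no further block to fit.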
